A study of Homo sapiens with 12 samples.

Results

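A total of 48 genes of the semaphorin, plexin, slit and netrin guidance systems were followed through neural differentiation of H9 cells, a line of human embryonic stem cells in wide use. The genes were taken by symbol from the protein-coding entries of a table of 58219 genes. They comprised 20 semaphorins, 9 plexins, 2 neuropilins, 3 slits, 4 robos, 4 netrins and 6 netrin receptors (DCC, NEO1 and UNC5A to UNC5D). The study asked what SOX21, a transcription factor of neural progenitors, does early in neural differentiation. Poly(A) RNA was sequenced from SOX21-/- H9 cells and from wild-type H9 cells at days 0, 4 and 8, with 2 libraries for each genotype and day, 12 in all. The libraries are named S13 and S23 under the SOX21-/- label, and WT1 and WT2 under the wild-type label. Cells were labelled as human embryonic stem cells at day 0 and as neural progenitors derived from them at days 4 and 8. The sources used here do not say whether the libraries of a group came from separate clones or cultures, so the p-values measure the spread between these libraries, which may be technical.

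Semaphorins are secreted or membrane-bound cues that steer growing axons and migrating cells. They act through plexins, with neuropilins as co-receptors for the secreted class 3 members. Slits are secreted repellents that bind robo receptors, and netrins attract through DCC or repel through UNC5 receptors, with neogenin (NEO1) as a relative of DCC. Many of these proteins are made by neuroepithelial progenitors before axons grow, and several plexins and semaphorins also act on cell shape and adhesion.

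Levels were in TPM, the scaled share of a gene among the transcripts of a library that allows for transcript length. TPM adds up to a fixed total, so the number of reads behind each value is unknown. SOX21 mRNA was at 1.62 and 1.84 TPM in the S13 and S23 libraries at day 0, against 1.26 and 1.39 TPM in WT1 and in WT2. By day 4 it had reached 162 and 143 TPM in the S13 and S23 libraries, against 156 and 166 TPM in the wild-type libraries, and at day 8 at 253 and 69.9 TPM, against 129 and 100.04 TPM. The mRNA level thus did not separate the genotypes and does not check the labels, and the sources used here do not name the deleted part. Every direction below is drawn between libraries labelled SOX21-/- and libraries labelled wild type. Of 6 stem cell markers 5 were called lower at day 4 than at day 0 in both genotypes, and LIN28A was called higher. All 8 progenitor markers were called higher at day 4 than at day 0 in both genotypes, although HES5 was still at 0.574 to 1.51 TPM at day 4. LHX2 and SIX3 among them were called lower in SOX21-/- at day 4, and SIX3 alone at day 8. The endoderm marker SOX17 was listed at 0 throughout. Transcripts of nuclear protein-coding genes had a share of 55.9% to 56.4% in the day 0 libraries and of 83.5% to 87.1% in those of days 4 and 8, so steps out of day 0 depend on the scaling. Each member was tested on log2(TPM + 1) with limma, in a fit over the 24248 genes that reached 1 TPM in at least 2 libraries. A member was called at an adjusted p under 0.05. Of the 48 members 47 were tested, since the endothelial receptor ROBO4 did not pass the filter and reached at most 1.73 TPM.

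Most guidance genes were present at some stage, and receptors were among the most abundant. A level of 100 TPM was reached by 7 members, namely the receptors PLXNB1, PLXNB2, ROBO1, NRP2 and NEO1 and the semaphorins SEMA4C and SEMA6A. Another 12 members stayed under 5 TPM in all libraries, among them SLIT1, SLIT3, NTN3, NTN5 and UNC5C. The summed level of all members was 800 and 677 TPM in the S13 and S23 libraries at day 0, against 693 and 686 TPM in the wild-type libraries. At day 4 it was 1017 and 1071 TPM in the S13 and S23 libraries, against 1576 and 1593 TPM in WT1 and in WT2. At day 8 the sums were 1312 and 1298 TPM in the S13 and S23 libraries, against 1160 and 1067 TPM in the wild-type libraries. At day 4 both SOX21-/- sums thus lay below both wild-type sums, and at day 8 above them.

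**Figure D1:**
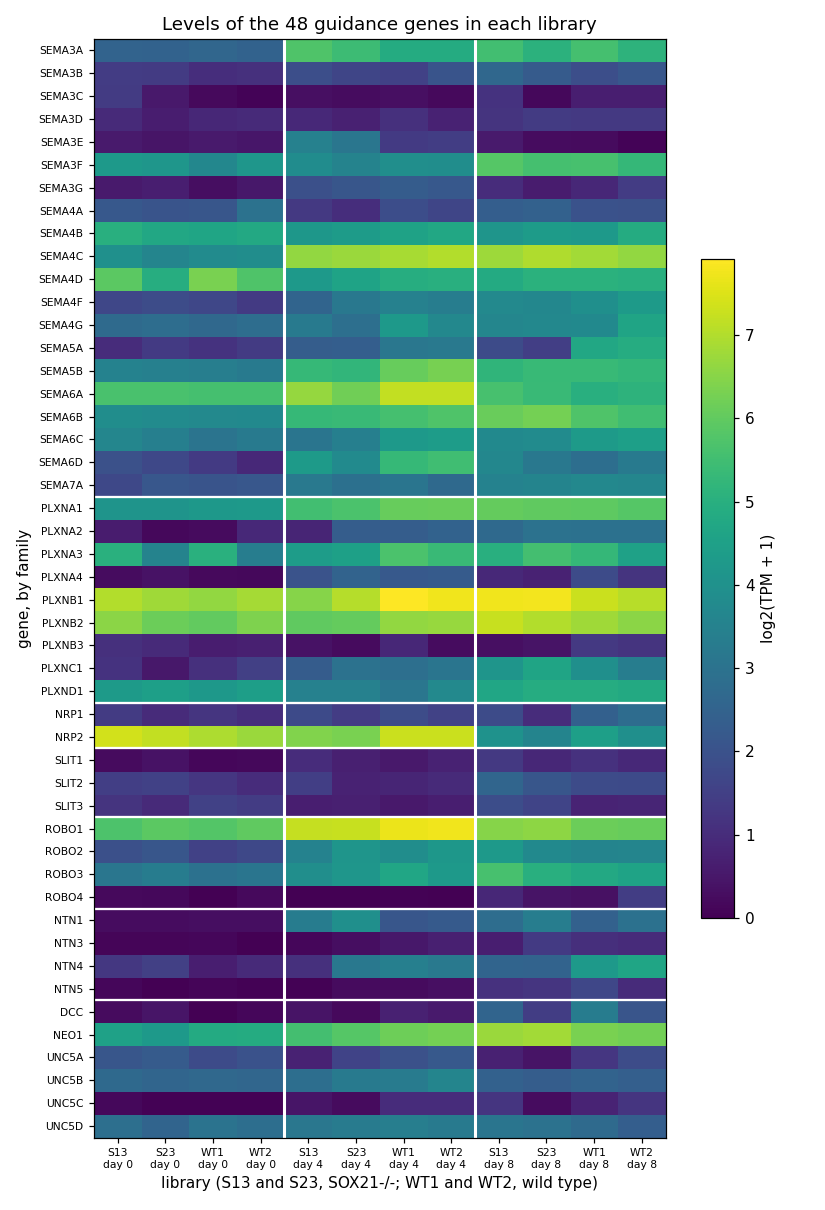
Level of each of the 48 guidance genes as log2(TPM + 1), by colour, in each of the 12 libraries, grouped by family and day. PLXNB1, PLXNB2, ROBO1 and NRP2 stand out as the brightest receptor rows, NRP2 is dim by day 8, and SEMA5A is brightest in WT1 and WT2 at day 8.

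**Figure D2:**
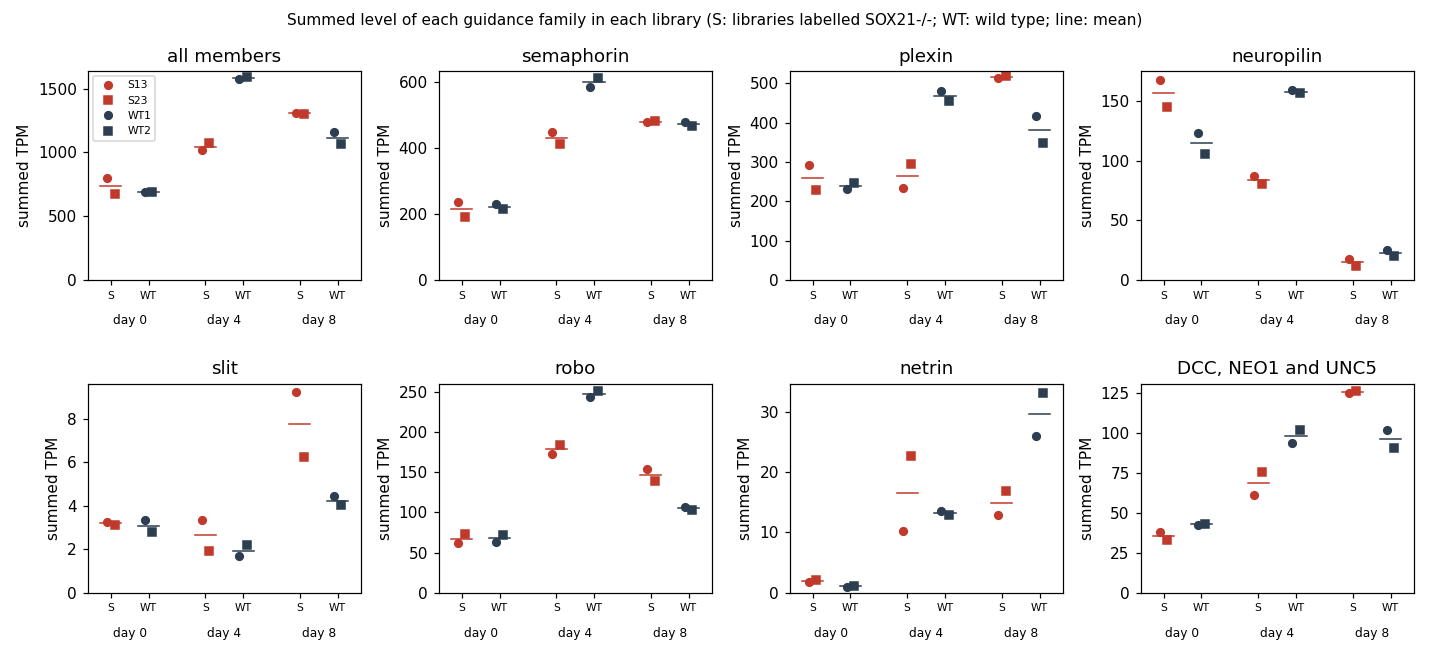
Summed TPM of all members and of each family in every library, with SOX21-/- (S) left of wild type (WT) at each day and a line at the mean of 2 libraries. The plexin and robo sums were lower in S13 and S23 at day 4 and higher at day 8, while the semaphorin sums at day 8 lay close together.

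Between genotypes the members differed least at day 0 and in a day-dependent way later. At day 0 limma called 0 of 47 members, against 0.384% of all genes tested. At day 4, 4 members were called, with SEMA3E higher and SEMA5B, SEMA6C and PLXNB1 lower in SOX21-/-, against 0.775% of all genes tested (0.239% higher and 0.536% lower). At day 8, 3 members were called, with SLIT3 and SEMA6B higher and SEMA5A lower, against 2.79% of all genes tested (1.47% higher and 1.32% lower). The day 4 differences ran below 0 for 37 members and above 0 for 10, with a median of -0.38 on the log2 scale, against -0.12 over all genes tested. With median-of-ratios scaling, which sets the median of all genes to 0, the median of 42 members at day 4 was -0.23. At day 8, 23 members ran above and 24 below 0, with a median of -0.02, against 0 over all genes. For 33 members the libraries of the genotypes did not overlap at day 4, 30 of them lower and 3 higher in SOX21-/-, against 44.9% of all genes tested (33.8% lower and 11.1% higher). At day 8 this held for 26 members, 10 of them lower and 16 higher, against 43.1% of all genes tested (21.7% lower and 21.4% higher). With a difference of at least 1 on the log2(TPM + 1) scale besides, it held for 7 members at day 4 and 3 at day 8, against 4.60% and 5.91% of all genes tested at those days.

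**Figure D3:**
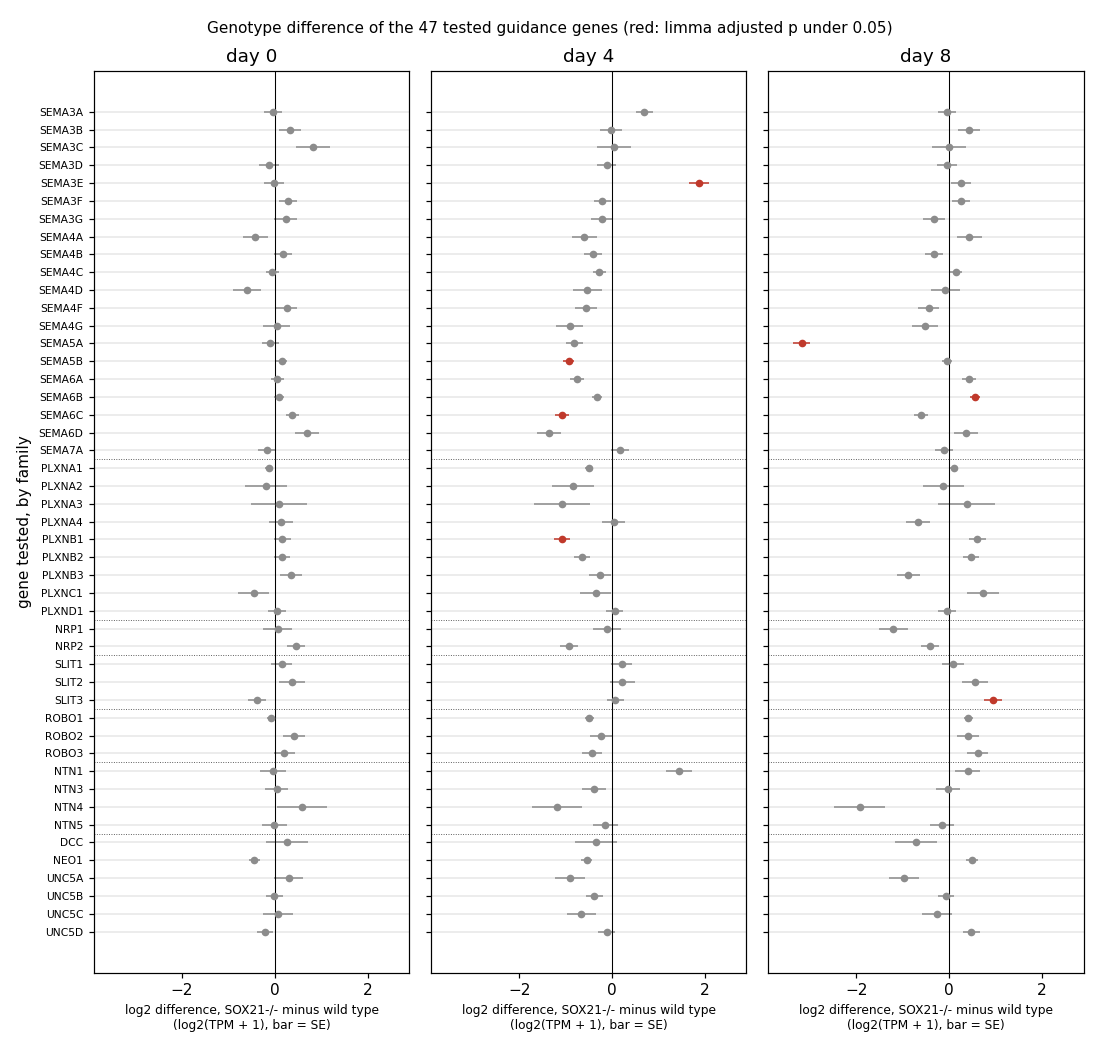
Genotype difference of each of the 47 tested guidance genes, SOX21-/- minus wild type on the log2(TPM + 1) scale, with bars of 1 SE, at days 0, 4 and 8. Members called by limma are red: none at day 0, SEMA3E, SEMA5B, SEMA6C and PLXNB1 at day 4, and SEMA5A, SEMA6B and SLIT3 at day 8, where SEMA5A lies farthest from 0.

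The change of the genotype difference over time was itself tested. Between day 0 and day 4 it was called for 2 members, SEMA5B and SEMA6C, both downward, against 0.408% of all genes tested. Between day 4 and day 8 it was called for 7 members, against 1.11% of all genes (0.788% upward and 0.326% downward). The difference moved upward for NEO1, PLXNB1, ROBO1, SEMA5B, SEMA6A and SEMA6B, and downward for SEMA5A. SEMA5B thus appears in both steps, with opposite signs. Both steps use the same day 4 libraries, so the 2 calls are not separate results.

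SEMA5A, a membrane semaphorin with thrombospondin repeats that guides axons in both attractive and repulsive ways, showed the largest genotype difference among the members tested at day 8. It lies on chromosome 5, 9035026 to 9546075 of GRCh38, on the minus strand (GENCODE v29). At day 0 S13 and S23 had 1.02 and 1.52 TPM, against 1.23 and 1.60 TPM in WT1 and in WT2. At day 4 they had 4.01 and 4.20 TPM, against 7.78 and 8.13 TPM in the wild-type libraries. At day 8 they had 2.50 and 1.78 TPM, against 25.8 and 28.97 TPM in the wild-type libraries. The genotypes overlapped at day 0 and not at days 4 or 8, and at day 8 the wild-type libraries were at their highest. SEMA5A averaged 2.14 ± 0.511 TPM in SOX21-/- and 27.4 ± 2.25 TPM in the wild-type libraries at day 8 (SD, n = 2 each), a log2 difference of -3.18 (SE 0.18, limma adjusted p = 0.000204). The call held in every alternative run, with log2 values of -3.35 to -3.02 when any library was left out. At day 4 the difference was -0.81 (SE 0.18, limma adjusted p = 0.0924). The change of the difference between these days was -2.37 (SE 0.26, limma adjusted p = 0.0102). It ended without WT1 at day 4 (limma adjusted p = 0.0503) and without WT2 at day 8 (limma adjusted p = 0.0510). Within genotypes, SEMA5A was lower at day 8 than at day 4 in SOX21-/- (-0.71, SE 0.18, limma adjusted p = 0.0246) and higher in wild type (1.66, SE 0.18, limma adjusted p = 0.00171). The annotation places a transcript on the opposite strand over a SEMA5A exon, and the sources used here do not say whether reads were assigned by strand. That gene was at 7.32 to 12.1 TPM at day 0 and at most 0.403 TPM at days 4 and 8.

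The 250 bases before the annotated start are shown for SEMA5A and SEMA3E, the members with the largest called differences at day 8 and day 4 (RefSeq, GRCh38.p14, minus strand, 5′ to 3′). SEMA3E has 2 annotated starts. Capitals mark ACAAT or ACAAAG on either strand (also ATTGT and CTTTGT), short motifs known for binding SOX proteins. The windows are chr5:9546076-9546325 for SEMA5A, and chr7:83649140-83649389 and chr7:83641432-83641681 for SEMA3E.
SEMA5A: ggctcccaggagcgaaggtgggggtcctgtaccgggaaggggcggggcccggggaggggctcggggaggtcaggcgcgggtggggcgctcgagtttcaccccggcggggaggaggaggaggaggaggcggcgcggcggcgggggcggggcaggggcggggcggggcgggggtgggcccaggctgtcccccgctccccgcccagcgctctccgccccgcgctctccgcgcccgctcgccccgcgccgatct
SEMA3E, upstream start: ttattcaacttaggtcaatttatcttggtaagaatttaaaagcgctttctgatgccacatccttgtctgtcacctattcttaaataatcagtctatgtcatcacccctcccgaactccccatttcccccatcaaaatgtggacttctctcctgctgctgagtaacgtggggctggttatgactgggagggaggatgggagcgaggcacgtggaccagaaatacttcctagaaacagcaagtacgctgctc
SEMA3E, downstream start: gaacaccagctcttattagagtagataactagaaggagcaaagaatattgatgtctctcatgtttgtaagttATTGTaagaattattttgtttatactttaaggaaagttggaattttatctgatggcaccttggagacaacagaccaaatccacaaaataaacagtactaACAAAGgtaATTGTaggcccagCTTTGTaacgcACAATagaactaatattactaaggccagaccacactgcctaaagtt
The SEMA5A window was 82% G or C and the upstream SEMA3E window 46.4%, and neither held these letters. The downstream SEMA3E window was 34.8% G or C and held 5 matches, with no match overlapping another. Over 35116 promoter windows of this length, 24.6% held ACAAT and 13.7% held ACAAAG on either strand, with a median of 58% G or C. Windows were found for 40 of the 48 members, 66 windows in all, of which 14 held ACAAT and 5 held ACAAAG. By gene, 13 of the 40 held ACAAT and 5 ACAAAG in at least 1 window, a count unlike the share by window. A match is a description of the letters, not a binding site.

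SEMA3E, a secreted class 3 semaphorin that signals through plexin D1, was high at day 4 in the SOX21-/- libraries and low elsewhere. It lies on chromosome 7, 83363238 to 83649113, on the minus strand. At day 0 S13 and S23 had 0.483 and 0.360 TPM, against 0.480 and 0.385 TPM in WT1 and in WT2. At day 4 they had 10.2 and 7.55 TPM, against 1.56 and 1.72 TPM in the wild-type libraries. At day 8 they had 0.484 and 0.193 TPM, against 0.186 and 0.0450 TPM in the wild-type libraries. Day 4 was the highest day in both genotypes, and the day 4 libraries of the genotypes did not overlap. SEMA3E averaged 8.86 ± 1.85 TPM in SOX21-/- and 1.64 ± 0.112 TPM in the wild-type libraries at day 4 (SD, n = 2 each), a log2 difference of 1.89 (SE 0.22, limma adjusted p = 0.0173). From day 4 to day 8 it fell in SOX21-/- by 2.88 (SE 0.22, limma adjusted p = 0.000177) and in wild type by 1.25 (SE 0.22, limma adjusted p = 0.00972) on the log2(TPM + 1) scale. The receptor gene PLXND1 was at 10.1 and 10.2 TPM in the S13 and S23 libraries at day 4, against 7.66 and 12.3 TPM in the wild-type libraries, and the groups overlapped. All 4 calls at day 4 ended without WT1 or without WT2 at that day (limma adjusted p = 0.0613 to 0.170) and in the fit without day 0 (0.0666 to 0.0846). SEMA3E and SEMA6C also lost theirs without S13 at day 4, and SEMA3E with a pseudocount of 0.1 (limma adjusted p = 0.0911).

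SEMA5B, the close relative of SEMA5A and a repulsive cue for cortical axons, followed another course. At day 0 S13 and S23 had 10.3 and 9.96 TPM, against 9.45 and 8.67 TPM in the wild-type libraries. At day 4 they had 38.4 and 35.8 TPM, against 66.6 and 77.4 TPM in the wild-type libraries, and at day 8 35.0 and 39.3 TPM, against 39.9 and 36.7 TPM. The genotypes did not overlap at day 4 and overlapped at day 8. The day 4 difference was -0.94 (SE 0.11, limma adjusted p = 0.0173), and the day 8 difference -0.04 (SE 0.11, limma adjusted p = 0.938). The change of the difference was -1.08 between days 0 and 4 (SE 0.16, limma adjusted p = 0.0347) and 0.89 between days 4 and 8 (SE 0.16, limma adjusted p = 0.0451). Each of these changes lost its call when any 1 of the 12 libraries was left out.

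The class 6 semaphorins are transmembrane ligands that bind class A plexins, and some also act as receptors. SEMA6A was above SEMA4C at day 0 and below SEMA6B at day 8 by group mean in both genotypes. At day 4 S13 and S23 had 101 and 72.3 TPM of SEMA6A, against 144 and 145 TPM in WT1 and in WT2, and at day 8 47.9 and 40.6 TPM, against 31.3 and 33.7 TPM. Its day 4 difference was -0.75 (SE 0.15, limma adjusted p = 0.0683), called with nuclear protein-coding genes alone (limma adjusted p = 0.0401) and without S13 at day 4 (0.0251), and its day 8 difference 0.43 (SE 0.15, limma adjusted p = 0.185). The libraries did not overlap on either day and lay on opposite sides. The change between them was 1.18 (SE 0.21, limma adjusted p = 0.0456), a call that ended in 10 of 12 fits with a library left out. Its antisense gene SEMA6A-AS1, whose reads may not be told apart from SEMA6A, stood at 62.9 and 60.8 TPM in SOX21-/- and 102 and 102 TPM in the wild-type libraries at day 4, and at 40.3 and 37.1 TPM against 32.7 and 29.3 TPM at day 8.

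SEMA6B had 39.0 and 40.4 TPM in the S13 and S23 libraries at day 4, against 47.4 and 52.5 TPM in the wild-type libraries. At day 8 it had 67.7 and 75.3 TPM in the S13 and S23 libraries, against 52.7 and 43.7 TPM in the wild-type libraries. The libraries lay apart on both days, and the order of the genotypes turned. The day 8 difference was 0.56 (SE 0.11, limma adjusted p = 0.0382) and the change since day 4 was 0.89 (SE 0.16, limma adjusted p = 0.0461). The first call ended in 11 and the second in 12 of 12 fits with a library left out.

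SEMA6C differed between the genotypes in opposite directions at days 0 and 4 by value. At day 0 it had 11.3 and 9.73 TPM in the S13 and S23 libraries, against 7.29 and 8.39 TPM in the wild-type libraries. At day 4 it had 7.49 and 9.75 TPM in the S13 and S23 libraries, against 18.7 and 19.8 TPM in the wild-type libraries. At day 8 it had 12.6 and 13.1 TPM, against 19.0 and 21.3 TPM. The SOX21-/- libraries were thus the higher ones at day 0 and the lower ones at days 4 and 8. The day 4 difference was -1.08 (SE 0.15, limma adjusted p = 0.0262), and the change since day 0 was -1.46 (SE 0.21, limma adjusted p = 0.0346), which ended in 11 of 12 fits with a library left out. The wild-type step between days 0 and 4 was 1.20 (limma adjusted p = 0.000118) and was -0.13 with median-of-ratios scaling. SEMA6D, which acts through plexin A1, had 18.8 and 12.9 TPM in the S13 and S23 libraries at day 4, against 39.0 and 44.5 TPM in the wild-type libraries. Those libraries did not overlap, but its difference of -1.36 (SE 0.26) was not called (limma adjusted p = 0.0644); it passed when nuclear protein-coding genes alone were scaled and tested (limma adjusted p = 0.0406). At day 8 SEMA6D had 11.8 and 8.07 TPM in the S13 and S23 libraries, against 6.29 and 8.51 TPM in the wild-type libraries, and the genotypes overlapped.

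SEMA4C, a membrane semaphorin that binds plexin B2, was the most abundant semaphorin by mean level over the 12 libraries. At day 0 it had 14.9 and 11.1 TPM in the S13 and S23 libraries, against 13.1 and 13.7 TPM in the wild-type libraries. At day 4 it had 98.2 and 106 TPM, against 118 and 128 TPM, and at day 8 108 and 126 TPM, against 112 and 99.3 TPM. The step from day 0 was called in both genotypes, and the genotypes did not overlap at day 4. The genotype differences of -0.27 at day 4 and 0.15 at day 8 were not called (limma adjusted p = 0.384 and 0.695). SEMA3A, a secreted repellent that acts through neuropilin 1, had 52.0 and 41.7 TPM in the S13 and S23 libraries at day 4, against 28.5 and 28.1 TPM in the wild-type libraries. It is one of 3 members whose libraries lay without overlap on the higher side in SOX21-/- at day 4, and its difference of 0.70 was not called (limma adjusted p = 0.131).

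**Figure D4:**
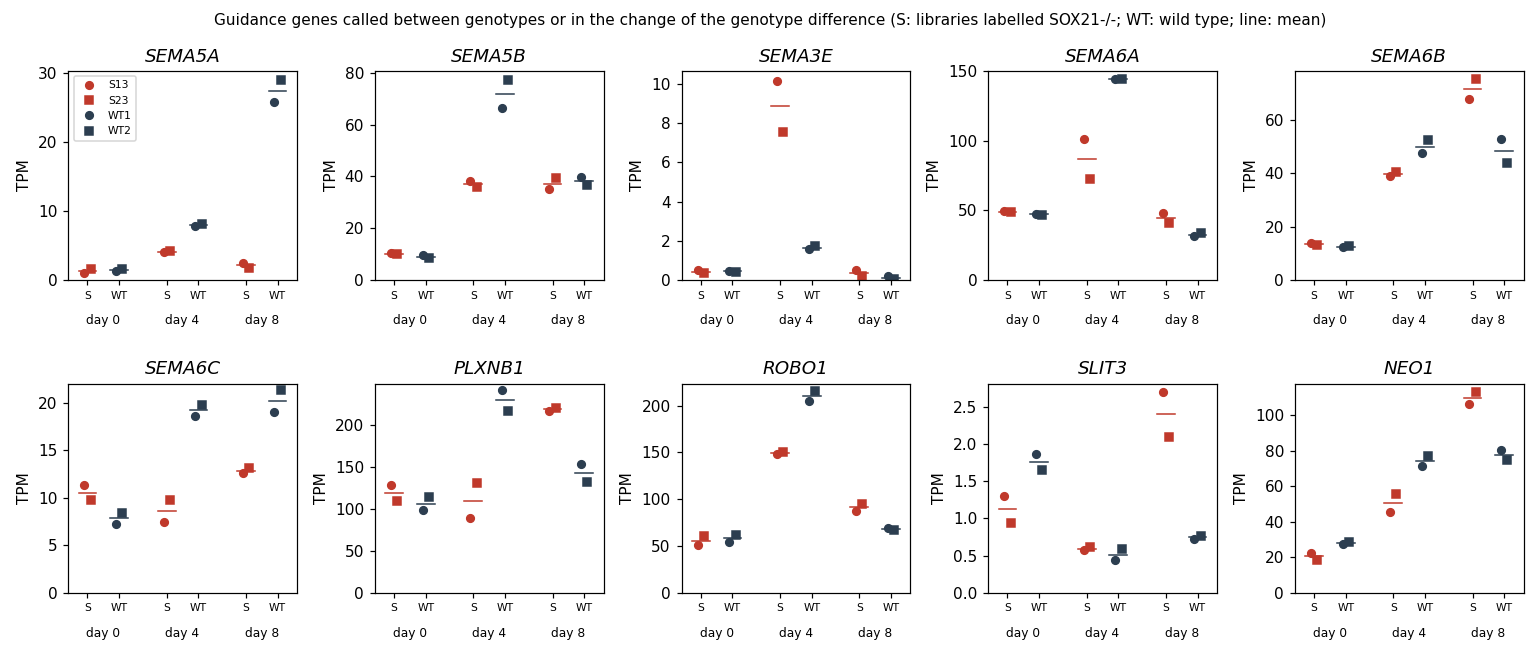
TPM in each library of the 10 guidance genes called between genotypes at a day or in the change of the genotype difference, with SOX21-/- (S) left of wild type (WT) at each day and lines at means of 2 libraries. SEMA5A is at 25.8 and 28.97 TPM in the wild-type libraries at day 8, SEMA3E reaches 10.2 TPM in SOX21-/- at day 4, and SEMA6A, PLXNB1, ROBO1 and NEO1 are lower in SOX21-/- at day 4 and higher at day 8.

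Among the receptors, PLXNB1, a plexin for SEMA4D, was the most abundant plexin. At day 0 S13 and S23 had 129 and 109 TPM, against 98.2 and 114 TPM in WT1 and in WT2. At day 4 they had 88.9 and 130.4 TPM, against 241 and 217 TPM in the wild-type libraries, and at day 8 217 and 221 TPM, against 154 and 132 TPM. The order of the genotypes thus turned between days 4 and 8, without overlap on either. The difference was -1.08 at day 4 (SE 0.18, limma adjusted p = 0.0464), a call that ended in 11 of 12 fits with a library left out, and 0.61 at day 8 (SE 0.18, limma adjusted p = 0.119). The day 8 difference was called without S13 or S23 at day 4 (limma adjusted p = 0.0444 and 0.0445). The change between these days was 1.69 (SE 0.25, limma adjusted p = 0.0268), which held in 6 of the 12 such fits and ended without S13 or S23 at day 8 and without either wild-type library at day 4 or day 8. From day 4 to day 8 PLXNB1 rose in SOX21-/- by 1.01 (SE 0.18, limma adjusted p = 0.00479) and fell in wild type by 0.68 (SE 0.18, limma adjusted p = 0.0411) on the log2(TPM + 1) scale. The wild-type call ended with a pseudocount of 0.1, with no filter, with no variance trend and without day 0 (limma adjusted p = 0.0512 to 0.0719). The ligand gene SEMA4D was at 18.2 and 23.2 TPM in the S13 and S23 libraries at day 4, against 29.4 and 30.9 TPM in the wild-type libraries, and its difference of -0.53 was not called (limma adjusted p = 0.432).

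PLXNB2, a receptor for SEMA4C, had 62.5 and 65.6 TPM in the S13 and S23 libraries at day 4, against 99.5 and 103 TPM in the wild-type libraries, and 153 and 128 TPM at day 8, against 109 and 92.6 TPM. PLXNA1, a receptor for class 3 and class 6 semaphorins, had 44.6 and 50.5 TPM in the S13 and S23 libraries at day 4, against 66.4 and 68.3 TPM in the wild-type libraries. Both lay lower without overlap at day 4, and neither difference was called (limma adjusted p = 0.124 for PLXNB2 and 0.0516 for PLXNA1). PLXNA1 passed with a filter at 5 TPM, with no filter, and with nuclear protein-coding genes alone (limma adjusted p = 0.0426 to 0.0493). PLXNA3 had 19.8 and 21.9 TPM in the S13 and S23 libraries at day 4, against 50.1 and 40.2 TPM in the wild-type libraries, without overlap. Its libraries spread widely within groups at day 0, an exon of LAGE3 overlaps it on the opposite strand, and its day 4 difference of -1.07 (SE 0.61) was not called (limma adjusted p = 0.42). Over the 9 plexins, 7 differences at day 4 and 4 at day 8 ran below 0, with medians of -0.50 and 0.11.

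NRP2, the co-receptor for SEMA3F, was the dominant neuropilin with a level at day 8 well below that at day 0 in both genotypes. At day 0 S13 and S23 had 166 and 145 TPM, against 122 and 105 TPM in the wild-type libraries. At day 4 they had 84.8 and 78.8 TPM, against 157 and 155 TPM, and at day 8 15.4 and 10.9 TPM, against 21.2 and 14.5 TPM. The SOX21-/- libraries were the higher ones at day 0 and the lower ones at day 4, and the groups overlapped at day 8. From day 4 to day 8 NRP2 fell by 2.57 in SOX21-/- (SE 0.20, limma adjusted p = 0.000198) and by 3.08 in wild type (SE 0.20, limma adjusted p = 0.000175) on the log2(TPM + 1) scale. From day 0 to day 4 it fell by 0.92 in SOX21-/- (SE 0.20, limma adjusted p = 0.00338), and the wild-type step of 0.46 was not called (limma adjusted p = 0.0692). The day 4 genotype difference was -0.92 (SE 0.20, limma adjusted p = 0.0796) and passed with nuclear protein-coding genes alone (limma adjusted p = 0.0391). Its ligand gene SEMA3F rose in both genotypes from day 4 to day 8, by 2.01 in SOX21-/- (SE 0.19, limma adjusted p = 0.000424) and 1.55 in wild type (SE 0.19, limma adjusted p = 0.00262). NRP1 was low, with 2.50 and 0.991 TPM in the S13 and S23 libraries at day 8, against 4.35 and 5.92 TPM in the wild-type libraries. Its day 8 difference of -1.20 (SE 0.31) had no overlap and was not called (limma adjusted p = 0.0885). It passed when nuclear protein-coding genes alone were scaled and tested (limma adjusted p = 0.0461). That setting called 5.04% of its genes at day 8, against 2.79% in the main fit.

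ROBO1, the main slit receptor by level here, had 50.8 and 60.3 TPM in the S13 and S23 libraries at day 0, against 54.7 and 62.3 TPM in the wild-type libraries. At day 4 it had 149 and 151 TPM, against 205 and 215 TPM, and at day 8 87.7 and 95.2 TPM, against 69.7 and 67.0 TPM. Both genotypes peaked at day 4, and the order of the genotypes turned by day 8. The differences of -0.49 at day 4 and 0.41 at day 8 were not called (SE 0.10 each, limma adjusted p = 0.0751 and 0.0748), while the change between them was 0.90 (SE 0.14, limma adjusted p = 0.0333). That call ended in 8 of 12 fits with a library left out. The slit ligands did not exceed 5.05 TPM in any library. SLIT2 had 5.05 and 3.30 TPM in the S13 and S23 libraries at day 8, against 2.52 and 2.40 TPM in the wild-type libraries. At day 8 SLIT3 had 2.70 and 2.09 TPM in the S13 and S23 libraries, against 0.723 and 0.769 TPM in the wild-type libraries. Neither slit overlapped between the genotypes at that day. The SLIT3 difference was 0.95 (SE 0.19, limma adjusted p = 0.0420), and the call ended whenever any 1 of the 12 libraries was left out (0.0519 to 0.173); that of SLIT2 was 0.56 (SE 0.27, limma adjusted p = 0.37). Each of the 3 slits ran above 0 at days 4 and 8, and each of the 3 robos tested ran below 0 at day 4 and above 0 at day 8. SLIT3 also had 1.30 and 0.944 TPM in the S13 and S23 libraries at day 0, against 1.86 and 1.65 TPM in the wild-type libraries, so its order turned as well.

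NTN4, a netrin related to laminins, had the highest mean of the netrins over the 12 libraries, although in SOX21-/- NTN1 was above it at day 4 (11.6 against 4.55 TPM) and day 8 (7.72 against 4.80 TPM). At day 4 S13 and S23 had 1.14 and 7.97 TPM, against 9.65 and 8.20 TPM in the wild-type libraries. At day 8 they had 4.89 and 4.71 TPM, against 18.2 and 24.3 TPM in the wild-type libraries. The groups did not overlap on either day, but S13 and S23 differed greatly at day 4. The differences of -1.18 at day 4 and -1.93 at day 8 (SE 0.54 each) were not called (limma adjusted p = 0.324 and 0.114). Leaving out S13 or S23 at day 4 moved the day 4 value to -0.14 without S13 and to -2.21 without S23, which was called (limma adjusted p = 0.0226). The day 8 value was called without S13 or S23 at day 4 (limma adjusted p = 0.00515 and 0.00542). NTN1, the floor plate netrin that attracts commissural axons through DCC, had 8.95 and 14.3 TPM in the S13 and S23 libraries at day 4, against 3.32 and 3.73 TPM in the wild-type libraries. At day 8 it had 6.13 and 9.31 TPM in the S13 and S23 libraries, against 4.45 and 6.78 TPM in the wild-type libraries, and the groups overlapped. Its day 4 difference of 1.45 (SE 0.28) was not called (limma adjusted p = 0.0644) and passed with nuclear protein-coding genes alone (limma adjusted p = 0.0369). The 5 floor plate markers summed to 69.1 to 86.0 TPM in SOX21-/- at day 4, against 55.0 to 55.5 TPM in wild type. At day 8 these markers summed to 334 to 534 TPM in SOX21-/-, against 79.5 to 86.2 TPM in wild type. Of the 2 tested, 1 was called higher and 0 lower at day 8. SHH and FOXA2 among the 5 did not exceed 0.116 TPM in any library.

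NEO1, the receptor for netrins and repulsive guidance molecules, had 22.3 and 18.6 TPM in the S13 and S23 libraries at day 0, against 27.4 and 28.6 TPM in the wild-type libraries. At day 4 it had 45.7 and 55.7 TPM, against 71.1 and 76.8 TPM, and at day 8 106 and 113 TPM, against 80.1 and 74.5 TPM. It was the lower in SOX21-/- at days 0 and 4 and the higher at day 8, without overlap at any day. The differences of -0.54 at day 4 and 0.50 at day 8 were not called (SE 0.12 each, limma adjusted p = 0.0887 and 0.0748), and the change between them was 1.04 (SE 0.17, limma adjusted p = 0.0386). That call ended in 9 of 12 fits with a library left out. NEO1 rose from day 4 to day 8 in SOX21-/- by 1.10 (SE 0.12, limma adjusted p = 0.000744), and its wild-type step was 0.06 (limma adjusted p = 0.812). DCC was at most 0.656 TPM at days 0 and 4 in any library. At day 8 it had 4.84 and 1.71 TPM in the S13 and S23 libraries, against 8.99 and 3.24 TPM in the wild-type libraries, with overlap. All 6 netrin receptors ran below 0 at day 4, with a median difference of -0.46, and 2 ran above 0 at day 8.

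More guidance genes were called between days than between genotypes. In SOX21-/-, 29 of 47 members were called at day 4 against day 0, 21 higher and 8 lower, against 60.6% of all genes tested (48.1% higher and 12.5% lower). In wild type, 32 were called for the same step, 28 higher and 4 lower, against 65.7% of all genes (54.3% higher and 11.4% lower). The shares of members called, 61.7% and 68.1%, were close to those of all genes. The median step of the members was 0.43 in SOX21-/- and 0.96 in wild type, against 0.72 and 0.91 over all genes tested. With median-of-ratios scaling, 27 of 42 members were called in SOX21-/-, 12 higher and 15 lower, with a median of -0.33. In wild type 28 of 42 were called, 14 higher and 14 lower, with a median of -0.04. Of all genes tested under this scaling, 51.1% were called in SOX21-/- and 52.4% in wild type. With that scaling the sign turned for 10 members in SOX21-/- and 14 in wild type, and such turns were not counted over all genes. UNC5D in SOX21-/-, and UNC5B and PLXNB2 in wild type, were called in opposite directions by the 2 fits. The 3 scalings run were TPM, nuclear protein-coding genes alone and median-of-ratios. Members called higher under all 3 in both genotypes included SEMA3A, SEMA4C, SEMA5B, SEMA6B, SEMA6D, PLXNA1, ROBO2 and NTN1. Called lower in all 3 were PLXND1, SEMA4A and SEMA4D in both genotypes.

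At day 8 against day 4, 24 members were called in SOX21-/-, 16 higher and 8 lower, against 26.1% of all genes tested (19.0% higher and 7.15% lower). In wild type 16 were called, 6 higher and 10 lower, against 12.6% of all genes (7.62% higher and 4.99% lower). Members were called in 51.1% of cases in SOX21-/- and in 34.0% in wild type, and their median steps were 0.41 and 0.21, against 0.20 and 0.03 over all genes. Called higher under all 3 scalings in both genotypes were PLXND1 and SEMA3F. Called lower in all 3 in both genotypes were NRP2, ROBO1, SEMA3E, SEMA3G, SEMA6A and UNC5B. SEMA5A was called higher in wild type and lower in SOX21-/-, and PLXNB1 lower in wild type and higher in SOX21-/-, under all 3. In wild type, fewer members and fewer of all genes were called without WT1 at day 4, WT2 at day 4 or WT1 at day 8.

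Lists of genes related to these ligands and receptors were set beside the share of all genes called, 0.775% at day 4 and 2.79% at day 8. Of 29 semaphorin and plexin effectors tested, 0 were called at day 4 and 1 at day 8, the small GTPase RND1 that binds plexins. RND1 had 24.1 and 18.2 TPM in the S13 and S23 libraries at day 8, against 6.16 and 4.83 TPM in the wild-type libraries, a log2 difference of 1.76 (SE 0.20, limma adjusted p = 0.00391). Of 17 slit and robo partners, 1 was called at day 4 and 3 at day 8, all higher. The robo effector SRGAP3 had 49.8 and 54.1 TPM in the S13 and S23 libraries at day 8, against 25.8 and 27.8 TPM in the wild-type libraries (0.93, SE 0.15, limma adjusted p = 0.0161). The adaptor NCK1 differed by 0.59 at day 8 (SE 0.12, limma adjusted p = 0.0462). CXCR4, a chemokine receptor whose signalling slit can dampen, had 90.8 and 110.4 TPM at day 8, against 30.0 and 28.6 TPM in the wild-type libraries (1.74, SE 0.24, limma adjusted p = 0.00949), and was higher at day 4 too (1.56, SE 0.24, limma adjusted p = 0.0377). Of 20 genes tested from a list around netrins, netrin-G, DCC, UNC5 and neogenin, 0 were called at day 4 and 1 at day 8. The latter was LRRC4C, a ligand of netrin-G and not of the netrin receptors followed here. It had 1.33 and 1.16 TPM in the S13 and S23 libraries at day 8, against 7.44 and 5.58 TPM in the wild-type libraries (-1.73, SE 0.21, limma adjusted p = 0.00509). The median day 4 differences of the 3 lists were -0.33, -0.26 and -0.19, beside -0.12 over all genes tested.

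Summed levels of some cell type markers differed between the genotypes at the same days. Young neuron markers (8 genes) summed to 121 to 152 TPM in SOX21-/- at day 4, against 221 to 234 TPM in the wild-type libraries, and to 140.2 to 197 TPM at day 8, against 271 to 285 TPM. TUBB3 carried most of these sums, at 59.4 and 89.0 TPM in the S13 and S23 libraries at day 4, against 141 and 157 TPM in the wild-type libraries. Of the 8, DCX alone was called at these days, lower at day 8, while INA, SNAP25 and ELAVL4 ran above 0 at day 4, and ELAVL3 and ELAVL4 at day 8. Roof plate and cortical hem markers (6 genes) summed to 53.7 to 171 TPM in SOX21-/- at day 4, against 11.1 to 11.8 TPM in the wild-type libraries, and to 335 to 344 TPM at day 8, against 5.20 to 6.78 TPM. WNT8B alone made up 322 and 303 TPM of the day 8 sums in S13 and S23. Of 5 tested, WNT8B was called higher at day 4, and WNT8B and WNT2B at day 8, while WNT2B ran below 0 at day 4 (-0.34). The 5 endothelial markers summed to 15.1 to 27.5 TPM in SOX21-/- at day 4, against 12.9 to 13.7 TPM in wild type, and to 6.84 to 8.27 TPM at day 8, against 14.4 to 14.7 TPM. Of these TEK was called lower at day 8 (-1.03, limma adjusted p = 0.0285), KDR reached 19.4 TPM in S13 at day 4, and CDH5 and PECAM1 did not exceed 1.88 TPM in any library. The part of these markers in the guidance gene differences was not tested, and in bulk RNA fewer cells of a type and less RNA per cell cannot be told apart.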

How the data were processed

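Poly(A) RNA of H9 cells was sequenced in 12 libraries, 6 groups of 2 by genotype and day, taken from the labels. The deposited file gives TPM for each gene, estimated by the authors. Salmon 0.8.2, CASAVA 1.7 and hg38 are named in the submitters' processing notes. Neither the annotation nor any use of strand is given in the sources used here. TPM keeps no read numbers, so depth and its precision are unknown. Sequencer types are not assigned to libraries in the labels.

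Genes with at least 1 TPM in at least 2 libraries (24248) were fitted on log2(TPM + 1), which understates changes of low genes, with limma 3.58.1 in R 4.3.3. The model had a mean per group, 6 residual and 2.29 prior degrees of freedom, two-sided tests, moderated variances that follow mean expression, and Benjamini-Hochberg adjustment over all genes within each of 9 comparisons, at 0.05. The code was tested on simulated data. Locations and overlaps came from GENCODE v29 (48 members matched, 44 with the same identifier version), and promoters from RefSeq.

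The members, gene lists and tests were chosen with earlier results of these data known. Named members were those called between genotypes or in a change of the difference, the most abundant of each family, and those without overlap and with a log2 difference of at least 1 at day 4 or day 8. DCC, PLXNA1, PLXNB2, PLXND1, SEMA3A, SEMA3F and SEMA4D were added after their values were seen. List genes were named where called. Older symbols were used for 2 markers. Other settings tried were a filter at 5 TPM or none, a pseudocount of 0.1, median-of-ratios scaling, nuclear protein-coding genes alone, no variance trend, days 4 and 8 alone, the library label as a block, and each library left out.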

Additional observations from a re-analysis of the deposited data

Results flagged for a closer look

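Genotype differences that changed between days, by limma's test of the change, marked 9 results. Between day 0 and day 4 the difference between SOX21-/- and wild type moved by -1.46 for SEMA6C and by -1.08 for SEMA5B on the log2(TPM + 1) scale. Between day 4 and day 8 it moved by 1.69 for PLXNB1, 1.18 for SEMA6A, 1.04 for NEO1, 0.90 for ROBO1, 0.89 for SEMA5B and 0.89 for SEMA6B, and by -2.37 for SEMA5A. All 9 changes lost their call with the library label as a block. That fit called 22 of all 24248 genes for the change between days 0 and 4, and 17 for that between days 4 and 8. The cause of the changes was not tested.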

How the results depend on the processing

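The SEMA5A call at day 8 held in all 20 alternatives that gave a value. Over all genes tested, day 4 calls were 128 with a pseudocount of 0.1 and 0 without day 0, against 188 in the main fit. They were 255 of 14809 with nuclear protein-coding genes alone. Day 8 calls were 312 without day 0 and 747 of 14809 with nuclear protein-coding genes alone, against 676. For the change between days 0 and 4 they were 26 with nuclear protein-coding genes alone, against 99. For that between days 4 and 8 they were 154, 112, 285 and 45 in the settings named below, in order, against 270. The counts of members called moved as follows. At day 4 the count was 2 with a pseudocount of 0.1, 9 with nuclear protein-coding genes alone and 0 without day 0. At day 8 it was 1 without day 0. For the change of the difference between days 0 and 4 it was 1 with nuclear protein-coding genes alone. For the change between days 4 and 8 it was 4 with a pseudocount of 0.1, 2 with median-of-ratios scaling, 3 without the variance trend and 2 without day 0. With a library left out, these counts of members mostly fell, and so did the counts over all genes tested. The counts for the steps between days moved as well, both in the members and over all genes tested. A group left with 1 library is assumed to vary like the others.

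With median-of-ratios scaling, in which the steps of all genes centre on 0, the steps between days 0 and 4 turned for 10 members in SOX21-/- and 14 in wild type. Turned steps were not counted over all genes. Of the named members' called steps, 4 turned: NEO1 (-0.036), PLXNB1 (-0.32) and SEMA6C (-0.13) in wild type, and SEMA6A (-0.41) in SOX21-/-. The library label as a replicate block left 0 members called at day 4, 1 at day 8 (SEMA5A), and 0 in either change of the difference. Of all 24248 genes tested, that fit called 0 at day 4 and 382 at day 8. It called 22 for the change between days 0 and 4 and 17 for that between days 4 and 8. Deviations of libraries with the same label correlated by -0.006 to 0.071 across days. With 2 libraries in a group, these values cannot tell whether a label marks the same culture across days. Of 1288 alternative values of 66 followed member results, 1069 kept their direction and side of the threshold, 209 lost a call, 6 gained one and 4 turned. TPM holds no read numbers, so what depth limits cannot be told; values under 1 TPM carry the least information.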

Other observations

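PLXNA3 split the libraries of each genotype in the same way at day 0, with 31.5 and 10.6 TPM in the S13 and S23 libraries and 31.6 and 9.25 TPM in WT1 and WT2. The gene LAGE3, which overlaps an exon of PLXNA3 on the opposite strand, was at 11.2 and 8.85 TPM in the S13 and S23 libraries and 13.3 and 10.6 TPM in WT1 and WT2 at that day.

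PLXNB3, a plexin described for glial cells, was at 0.252 and 0.347 TPM in the S13 and S23 libraries at day 8, against 1.49 and 1.28 TPM in the wild-type libraries. UNC5A was at 0.670 and 0.324 TPM in the S13 and S23 libraries at that day, against 1.37 and 2.61 TPM in the wild-type libraries. Neither overlapped between the genotypes, and neither difference was called by limma (-0.88 and -0.98, adjusted p = 0.106 and 0.166). PLXNC1, a receptor for SEMA7A, was called higher at both steps in SOX21-/- and at the step from day 0 in wild type. At day 8 it had 16.5 and 23.9 TPM in the S13 and S23 libraries, against 14.5 and 9.14 TPM in the wild-type libraries. Its genotype difference was not called at any day. These 4 genes were chosen after their values were seen.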
